A study of Mus musculus with 6 samples.

Results

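The immediate early and AP-1 genes Fos, Fosb, Fosl2, Jun, Junb, Jund, Egr1, Ier2, Atf3 and Nr4a1 were followed across 6 arrays of LSK-SLAM cells, marrow cells in which hematopoietic stem cells (HSC) are concentrated. They are 10 of the 31791 named genes on the array, and every non-control probe carrying 1 of their names was taken, 11 probes in all. The genes were chosen from earlier results of these arrays on the same contrast of genotypes, so their differences are a description and carry no test. The cells came from secondary recipients of hematopoietic cells that were either wild type (2T-WT, 3 arrays) or lacked p190-B, the RhoGAP encoded by Arhgap5 (2T-p190-B-/-, 3 arrays). Donor cells were mid-gestation fetal liver cells of p190-B-/- embryos or their WT littermates. They were transplanted with congenic WT competitor marrow into lethally irradiated mice, and marrow of those mice into lethally irradiated secondary recipients. Marrow was depleted of lineage-positive cells and sorted as c-Kit-positive, Sca-positive, CD150-positive and CD48-negative cells. The sort as described names no donor marker, so host or competitor cells may be present on each array. The study describes independent mice for each group, but the labels tie no array to an animal, and spread between arrays may in part be technical.

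Immediate early genes are transcribed within minutes of a stimulus, without new protein synthesis, and their mRNA is short-lived. FOS and JUN proteins pair through leucine zippers to form AP-1, a transcription factor downstream of the ERK, JNK and p38 kinases, and EGR, ATF3 and NR4A1 are further transcription factors of the same early response. In HSC these genes mark recent stimulation, and NR4A1 is known for its link to quiescence. They also respond to dissociation and sorting of cells.

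A probe on this array is a 60-base oligonucleotide, and a gene's value is the brightness of 1 such sequence. The probes of Junb, Fosl2 and Ier2 are shown 5′ to 3′. Junb was the 1 member whose arrays lay higher in 2T-p190-B-/-. The Fosl2 probe had an unscaled signal that was alike on most arrays, and Ier2 lies on the same chromosome as Junb. Each of these sequences holds at least 1 reading frame without a stop codon. Coordinates are those of the array annotation, build mm9, and no capitals are used because the whole probe is the measured part.
Junb probe, chr8:87501881-87501940: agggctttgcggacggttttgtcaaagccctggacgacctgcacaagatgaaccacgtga
Fosl2 probe, chr5:32455088-32455147: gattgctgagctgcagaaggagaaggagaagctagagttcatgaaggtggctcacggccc
Ier2 probe, chr8:87186214-87186273: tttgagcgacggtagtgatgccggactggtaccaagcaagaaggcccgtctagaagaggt
Of the 3 members on chromosome 8 (Junb, Ier2 and Jund), the Junb and Ier2 probes are 316 kb apart.

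Signals are given in 2 forms. The processed signal is Agilent's background-corrected brightness on a linear scale. The scaled level is the log2 ratio of that signal to the 75th percentile of its array, so that 0 is the brightness of the upper quartile of spots on that array. That percentile ran from 53.9 to 227 in 2T-WT and from 252 to 385 in 2T-p190-B-/-, so scaling lowered every 2T-p190-B-/- array more than any 2T-WT array. Between 48.4% and 73.1% of the 39429 probes were well above background on an array. Limma with Benjamini-Hochberg adjustment called 0 of 25159 tested probes (0%) between the genotypes. The smallest adjusted p was 0.0721, 1654 probes (6.57%) had an unadjusted p under 0.05, and the methods' t-test gave 0 after adjustment. The median log2 difference of all tested probes, 2T-p190-B-/- minus 2T-WT, was −0.33, and 60.8% of them were lower in 2T-p190-B-/-. The 3 arrays of 1 genotype lay wholly above those of the other for 15.9% of tested probes, higher in 2T-p190-B-/- for 4.47% and lower for 11.5%. The arrays lie on 3 slides, and slide 2 alone holds both genotypes, 2 arrays of each.

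Fos, the founding FOS subunit of AP-1, was seen on a single array. Its probe (chr12:86817900-86817959, plus strand) is spotted 10 times, and its processed signal, averaged over spots, was 5.31, 3.36 and 4.37 in 2T-WT, replicates 1, 2 and 3 in order. In 2T-p190-B-/- it was 3.46, 246 and 4.23. Only 2T-p190-B-/- replicate 2 was well above background, and the other 5 arrays gave no measured level, so Fos has no group difference. The signal on that array was shared by all spots of the probe. Its 10 spots ran from 199 to 280 with a median of 248 and an SD of 22.4, whereas the highest spot kept on any other array was 9.87 (1 outlier spot of 2T-WT replicate 2, at 19.4, was left out). On the scaled level, 2T-p190-B-/- replicate 2 stood at −0.38 and the next array, 2T-WT replicate 3, at −3.62. A gap at least as wide between the highest array and the next was found for 2990 of 38935 probes with a value on all arrays (7.68%). Another 2T-p190-B-/- array, replicate 1, had the most probes above background nowhere else, 1794, against 551 for replicate 2.

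**Figure D1:**
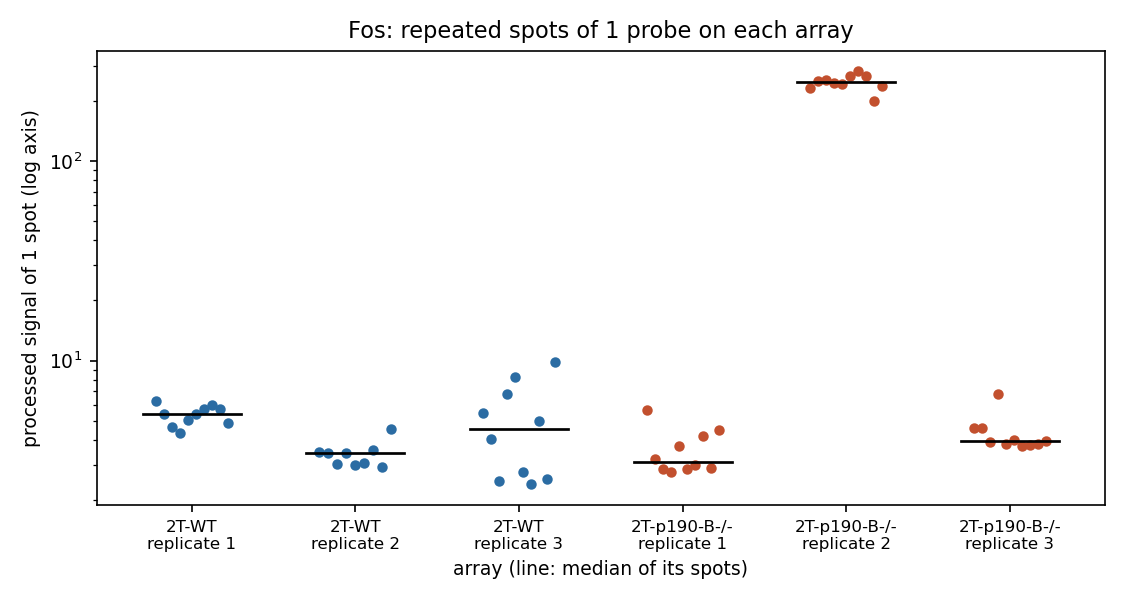
Processed signal of each repeated Fos spot kept on the 6 arrays (vertical log axis, background-corrected brightness), 1 point per spot and a black line at the median of each array. The 10 spots of 2T-p190-B-/- replicate 2 lie between 199 and 280, and no spot of the other arrays exceeds 9.87.

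Fosb, a FOS subunit whose truncated form persists after repeated stimulation, was above background on all 6 arrays (chr7:19888168-19888227, minus strand). Its scaled level was 0.54, 1.70 and 1.16 in 2T-WT and 0.54, 0.41 and 2.40 in 2T-p190-B-/-. The groups overlapped, with the highest value on 2T-p190-B-/- replicate 3, and the log2 difference was −0.02 (SE 0.81). Without 2T-p190-B-/- replicate 3 the difference was −0.66 and the remaining arrays did not overlap. The nearest arrays, replicate 1 of each group, were then nearly tied, both at 0.54.

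Fosl2 encodes FRA2, an AP-1 subunit that follows the first wave of FOS. It has a pair of probes 4988 bases apart that disagreed. The probe printed above was well above background on every array, and the other (chr5:32460076-32460135) on none. At the printed probe the processed signal was 9970, 6700 and 9280 in 2T-WT and 9480, 9980 and 9960 in 2T-p190-B-/-. These signals lie close together on 5 of 6 arrays and the groups overlap. After scaling they became 6.32, 4.88 and 7.43 in 2T-WT and 4.62, 4.96 and 5.30 in 2T-p190-B-/-, a log2 difference of −1.25 (SE 0.83). The difference was 0.20 without scaling and −0.06 after quantile normalization.

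Jun, which encodes the central JUN partner of AP-1, was above background on all 6 arrays (chr4:94716928-94716987, minus strand) and varied within both groups. Its processed signal was 516, 556 and 24.5 in 2T-WT and 591, 281 and 2400 in 2T-p190-B-/-. 2T-WT replicate 3 was the lowest and 2T-p190-B-/- replicate 3 the highest, and the groups overlapped. On the scaled level the difference was 0.49 (SE 1.18), and it turned to −0.52 without 2T-p190-B-/- replicate 3 and to −0.44 without 2T-WT replicate 3.

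Junb, a JUN protein known to restrain proliferation of HSC and myeloid progenitors, was the only tested member for which each 2T-p190-B-/- array exceeded each 2T-WT array. Its processed signal was 43.7, 43.9 and 5.34 in 2T-WT, of which replicate 3 was not well above background. It was 410, 139 and 444 in 2T-p190-B-/-. The scaled level was −1.51, −2.37 and −3.33 in 2T-WT and 0.09, −1.20 and 0.82 in 2T-p190-B-/-, so that the groups did not overlap. The nearest arrays, 2T-WT replicate 1 and 2T-p190-B-/- replicate 2, were 0.31 apart, less than the within-group SD of 0.91 in 2T-WT and 1.02 in 2T-p190-B-/-. The log2 difference was 2.31 (SE 0.84), 4.95-fold, and 2.30 within slide 2. The direction held with each array left out in turn, from 1.84 to 2.86, and without scaling. With normexp, another background correction, it was 0.76 and the groups overlapped.

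Jund, the most constantly expressed JUN gene in many tissues, lay lower in 2T-p190-B-/- (chr8:73224436-73224495, plus strand), and 1 array set the size of the difference. Its scaled level was 2.52, 2.15 and 2.11 in 2T-WT and 1.71, 0.90 and −4.38 in 2T-p190-B-/-. The last value, from replicate 3, was a processed signal of 12.1 that was not well above background, whereas the other 5 arrays gave 233 to 1260. All 3 2T-p190-B-/- arrays were below all 3 2T-WT arrays, with a log2 difference of −2.85 (SE 1.48). Without 2T-p190-B-/- replicate 3 it was −0.96, and within slide 2 it was −0.83. The unscaled signals of the groups overlapped.

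Egr1 encodes a zinc finger factor of the early response that is linked to retention and quiescence of HSC. Its scaled level was −3.04, −1.99 and −2.01 in 2T-WT and −4.71, −4.59 and −3.08 in 2T-p190-B-/-, and the groups did not overlap. 2T-WT replicate 1 and 2T-p190-B-/- replicate 2 were not well above background, and the signal was low throughout, from 13.3 to 57.2. The highest 2T-p190-B-/- array and the lowest 2T-WT array were 0.04 apart. The log2 difference was −1.78 (SE 0.77) and kept its sign under each alternative run. Without scaling it was −0.33 and the groups overlapped, with signals of 13.4 to 57.2 in 2T-WT and 13.3 to 29.7 in 2T-p190-B-/-.

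Nr4a1, an orphan nuclear receptor of the early response (chr15:101105071-101105130, plus strand), was above background on all 6 arrays. Its scaled level was −1.63, −1.80 and −0.01 in 2T-WT and −2.65, −2.70 and −1.81 in 2T-p190-B-/-. The groups were separated by 0.009, between 2T-WT replicate 2 and 2T-p190-B-/- replicate 3, and the log2 difference was −1.24 (SE 0.77). The unscaled signals, 40.2 to 65.2 in 2T-WT and 49.5 to 71.9 in 2T-p190-B-/-, overlapped with a difference of 0.21. The groups also overlapped under quantile normalization, normexp and the authors' processed values.

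Ier2, a small nuclear protein induced early, and Atf3, a stress-induced repressor of the ATF family, overlapped between the genotypes. The scaled level of Ier2 was 0.21, 0.14 and −2.72 in 2T-WT and −2.26, −0.81 and −3.82 in 2T-p190-B-/-, and replicate 3 of each group was not well above background. Its log2 difference was −1.51 (SE 1.11), and −0.25 within slide 2. Atf3 (chr1:192994547-192994606, minus strand) stood at −3.27, −2.50 and 0.87 in 2T-WT and −2.78, −3.19 and −2.21 in 2T-p190-B-/-. A single array, 2T-WT replicate 3, was high, and the difference of −1.09 (SE 1.11) became 0.16 without it.

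**Figure D2:**
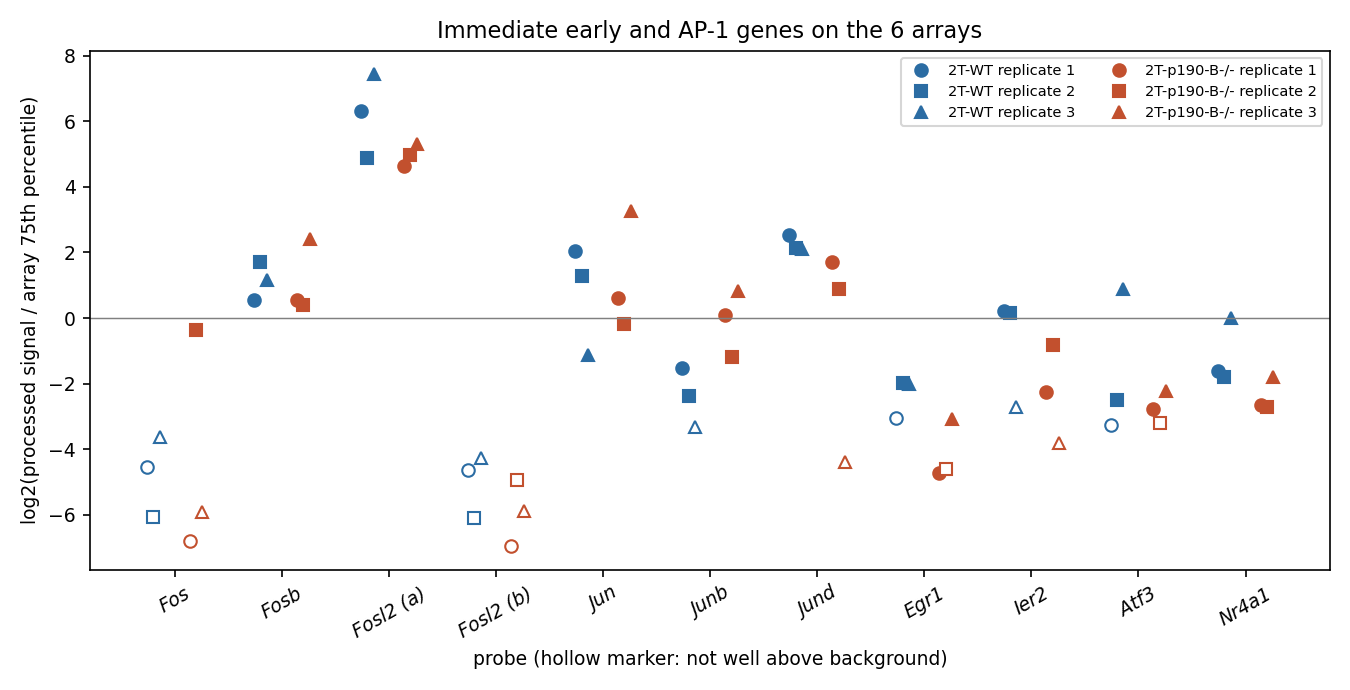
Scaled level (vertical axis, log2 of the processed signal over the array's 75th percentile) of the 11 probes of the 10 genes, 1 marker per array, blue for 2T-WT and red for 2T-p190-B-/-, with hollow markers where the probe was not well above background. Fosl2 (a) is the probe printed in the text and Fosl2 (b) the dim one. Junb is the only gene whose red markers all lie above the blue ones, and Fos has 1 filled marker of 6.

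Of the 9 members tested, 7 lay below 2T-WT in the 2T-p190-B-/- mean and 2 above it, with a median log2 difference of −1.24. Relative to the median of all probes, 6 were lower and 3 higher. Non-overlapping groups were found for 4 of 9 members (44.4%), Junb higher and Jund, Egr1 and Nr4a1 lower, beside 15.9% of all tested probes. Since the members were picked on this contrast, nothing is read from that share. Limma called 0 of the 9. The members varied between arrays of a group much as other probes did, with a median pooled SD of 0.97 on the log2 scale against 1.06 over all tested probes. No array was extreme for all of them, although replicate 3 of either genotype was the highest for 3 of the 9 members and the lowest for 2. Fewer cells with a transcript and less transcript per cell cannot be told apart on these arrays.

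How the arrays were scaled set the sign of several differences. Without scaling, an alternative chosen after seeing the data, the median of all probes moved from −0.33 to 1.12, and 6 of 9 members were higher in 2T-p190-B-/-. Only Junb then remained without overlap. Relative to the median of all probes, 6 members were again lower and 3 higher. Under quantile normalization 5 of 9 members were below that median and under normexp also 5. Jun and Junb were above it, and Jund, Egr1, Atf3 and Nr4a1 below it, under the 75th percentile, quantile normalization, normexp, the slide as a block and no filter on dim probes. Fosb, Fosl2 and Ier2 changed side between these settings. Leaving out single arrays also moved Jun and Atf3 across that median. Jun was below it without 2T-WT replicate 3 (−0.20) and without 2T-p190-B-/- replicate 3 (−0.08). Atf3 was above it without 2T-WT replicate 3 (0.40). Junb, Jund, Egr1 and Nr4a1 kept their side with each array left out.

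**Figure D3:**
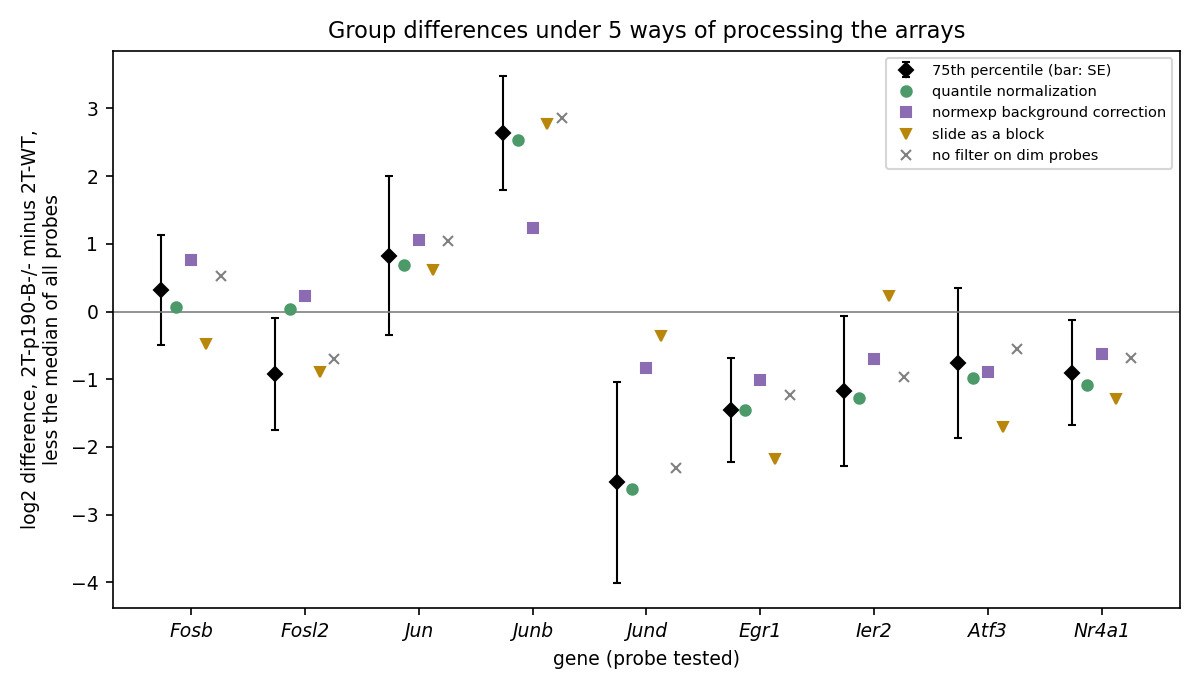
Log2 difference of the 9 tested members, 2T-p190-B-/- minus 2T-WT, less the median of all probes under the same processing (vertical axis), with 1 marker per way of processing and the SE as a bar on the 75th percentile scaling. Junb lies between 1.23 and 2.85, and Egr1 between −2.18 and −1.01, on 1 side of 0 under all 5 ways.

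The promoters of the members were searched for the sites of factors that switch on early genes. RefSeq promoters (GRCm38.p6) were listed for 8 of the 10 members, all but Egr1 and Ier2, and the 250 bases before the start site were read on both strands. The CREB half-site TGACG was found in 5 of 8, Fos, Fosb, Junb, Atf3 and Nr4a1, beside 19.8% of 27025 genes. They include Junb, higher in 2T-p190-B-/-, and Nr4a1, lower. The 140 bases nearest the start site of these genes are printed 5′ to 3′ along the gene's strand, with the half-site of either strand (TGACG or CGTCA) in capitals.
Fos promoter, chr12:85473750-85473889, plus strand: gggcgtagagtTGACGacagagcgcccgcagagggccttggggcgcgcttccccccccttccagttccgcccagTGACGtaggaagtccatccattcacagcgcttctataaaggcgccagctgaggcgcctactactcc
Fosb promoter, chr7:19310046-19310185, minus strand: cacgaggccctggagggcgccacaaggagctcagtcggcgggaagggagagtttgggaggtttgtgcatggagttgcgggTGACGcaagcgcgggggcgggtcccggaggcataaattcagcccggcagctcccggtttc
Junb promoter, chr8:84978749-84978888, minus strand: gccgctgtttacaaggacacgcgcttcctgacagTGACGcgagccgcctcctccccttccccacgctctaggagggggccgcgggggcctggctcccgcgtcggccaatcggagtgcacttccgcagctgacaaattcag
Atf3 promoter, chr1:191183334-191183473, minus strand: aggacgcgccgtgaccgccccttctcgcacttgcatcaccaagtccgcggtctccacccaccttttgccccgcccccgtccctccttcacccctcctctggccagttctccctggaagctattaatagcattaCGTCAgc
Nr4a1 promoter, chr15:101266706-101266845, plus strand: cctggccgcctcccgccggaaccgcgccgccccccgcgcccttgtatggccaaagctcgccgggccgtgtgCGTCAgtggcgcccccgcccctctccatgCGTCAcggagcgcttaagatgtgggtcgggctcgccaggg
Fos holds its half-sites at 129 and 66 bases before the start and a TATAAA box at 33. Nr4a1 holds 4, at 233, 213, 69 and 40 bases, of which the nearer pair is printed. Fosb holds 1 at 60 bases, Junb 1 at 106 and Atf3 1 at 7. The EGR site GCGGGGGCG was found in Fosb, Fosl2 and Nr4a1, 3 of 8, beside 2.93% of genes, and overlaps no half-site. TATAAA was found in Fos alone (8.94% of genes). None of the 8 windows held the full site TGACGTCA (1.77% of genes), the AP-1 site TGACTCA (5.16%), the ETS site CCGGAAGT (3.23%) or a CArG box, the site of SRF (1.62%). These are matches of letters in a short window and do not show binding.

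Among 46 other immediate early genes, 28 were tested, 16 lower and 12 higher in 2T-p190-B-/-, with a median log2 difference of −0.40 beside −0.33 over all probes. The groups did not overlap for 5 (17.9%, beside 15.9%), and limma called 0. In the NR4A family, Nr4a2 was at background throughout 2T-WT and above it on all 3 2T-p190-B-/- arrays, at 1.14, −2.48 and −2.27, at least 3.44-fold higher. Without replicate 1, a setting added after seeing the data, the bound was 1.53-fold. Nr4a2 passed the filter through 1 genotype alone, so it carries no test here. The 28 tested, the 12 higher and the 5 without overlap include it. The bound sets the mean of the bright group against the lowest signal measured above background on each dim array. Nr4a3 was above background on no array. In the EGR family, Egr3 was −0.99, −1.40 and −1.65 in 2T-WT and −2.47, −3.11 and −1.87 in 2T-p190-B-/-, without overlap (difference −1.14, SE 0.69). Its level on 2T-p190-B-/- replicate 2 was not well above background. Unscaled, the Egr3 groups overlapped with a difference of 0.31. Egr2 was above background on no array. Fosl1, which encodes the AP-1 subunit FRA1, reached 3.67 on 2T-p190-B-/- replicate 3 and −1.34 or less on every other array. In 2T-WT only replicate 1 gave a measured level, and no difference is given.

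Ier5, an early gene tied to the heat shock response, was 1.15, −1.05 and 0.54 in 2T-WT and −1.33, −2.89 and −1.58 in 2T-p190-B-/-, a difference of −2.15 (SE 0.85) without overlap. Its level on 2T-p190-B-/- replicate 2 was not well above background. Unscaled, the Ier5 difference was −0.70 with overlap. The phosphatase genes Dusp1 and Dusp6 overlapped, with differences of −0.61 and −0.50. When unscaled, however, Dusp1 lay higher in 2T-p190-B-/- without overlap (0.84). Gadd45b, a stress gene, and Ier3 overlapped, and each had a measured level on 1 array alone in 2T-WT, so no difference is given. Among the other early genes named by role, several were at background on most arrays. Btg2 and Zfp36 were above it on none, Klf2 and Klf4 on 2T-p190-B-/- replicate 1 alone, and Klf6 and Myc on 1 array of each group. Limma's smallest adjusted p among these 28 early genes was 0.637.

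Of 32 AP-1 partners and related leucine zipper factors, 20 were tested, 12 lower and 8 higher, with a median of −0.44. The groups did not overlap for 4 (20%, beside 15.9%), 3 of them higher and 1 lower. Atf4, the effector of the integrated stress response, was 2.84, 1.39 and 3.59 in 2T-WT and 0.81, 0.83 and 1.33 in 2T-p190-B-/-, a difference of −1.61 (SE 0.79) without overlap. Unscaled, the groups overlapped. Jdp2, a repressor that pairs with JUN, gave −0.83 (SE 0.79) with overlap, and Batf and Creb1 were above background on 1 array of each group. Bach2, a repressor that competes with AP-1 at its sites, had the smallest adjusted p of the list, 0.462, and was named after its values were seen. It was −4.52, −2.72 and −1.81 in 2T-WT and 2.08, 1.00 and 0.58 in 2T-p190-B-/-, a difference of 4.24 (SE 0.90) without overlap. 2T-WT replicate 1, at a processed signal of 5.44, was not well above background, which limits the size of that difference.

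Of 19 SRF, TCF and CREB regulators of early genes, 13 were tested, 10 lower and 3 higher, with a median of −0.70. That median was 0.07 under quantile normalization and 0.75 without scaling. The groups did not overlap for 1 (7.69%, beside 15.9% of all tested probes). Srf itself was −0.10 (SE 0.76) and its partner Elk4 0.07 (SE 0.78). Elk1 was −1.35 (SE 0.78) with overlap. Of 29 ERK, JNK and p38 kinases and their upstream kinases, 23 were tested, 13 higher and 10 lower, with a median of 0.06. Their groups did not overlap for 2, 1 in each direction (8.7%, beside 15.9%). The higher one, Map3k1 (named after its values were seen), was above background on no 2T-WT array. It passed the filter through 2T-p190-B-/- alone, so it carries no test. The ERK gene Mapk3 gave 0.81 (SE 0.84) and the JNK gene Mapk8 0.73 (SE 0.71), both with overlap. The p38 gene Mapk14 overlapped as well and was above background on 1 2T-WT array and 2 2T-p190-B-/- arrays. Of 15 genes that turn over early mRNA and AP-1 protein, 8 were tested, 4 in each direction, with a median of −0.30 (0.24 under quantile normalization) and overlap for all 8. Of 26 genes that AP-1 is known to raise in other cells, 14 were tested, 7 in each direction, with a median of 0.16, and 3 were lower without overlap (21.4%, beside 11.5% of all tested probes). Limma called 0 genes in each of these lists.

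**Figure D4:**
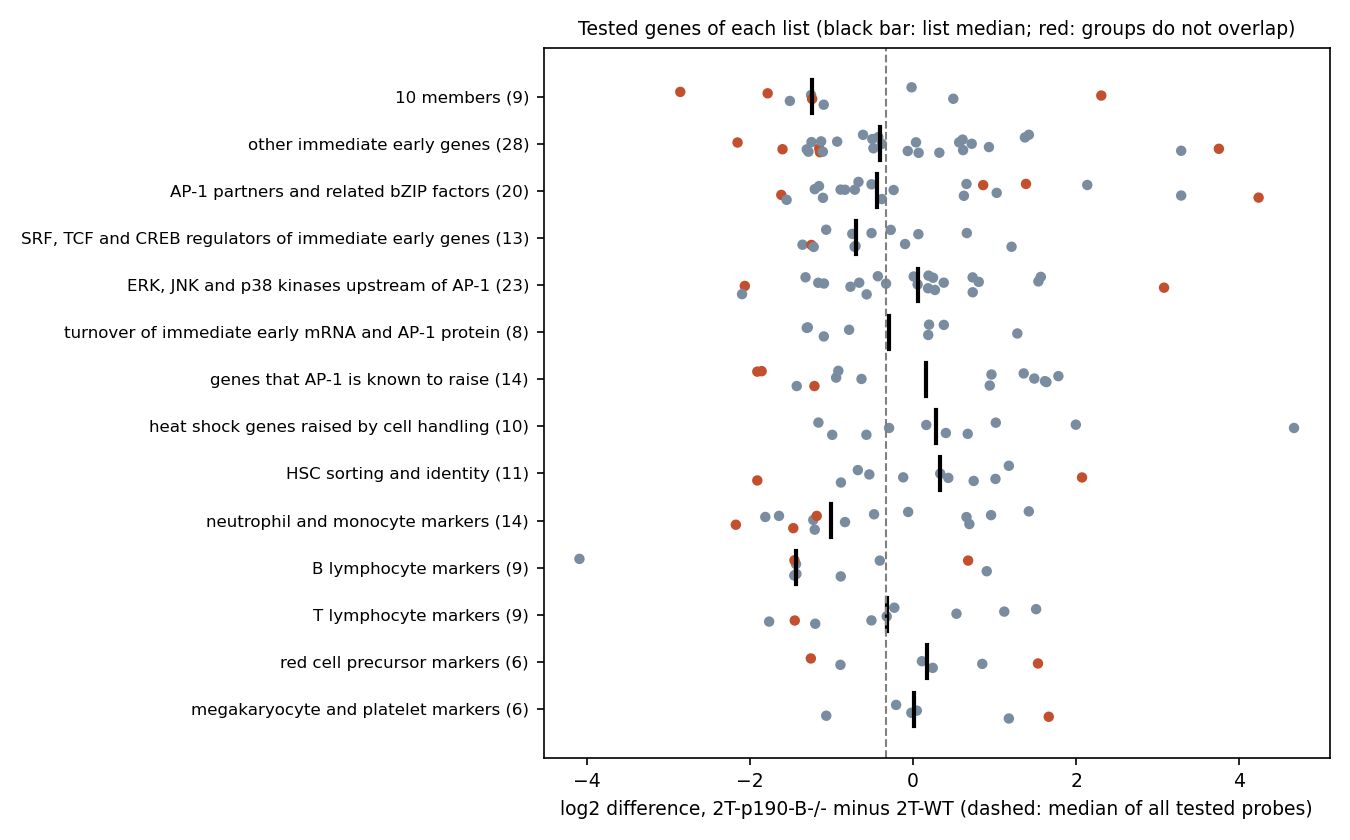
Log2 difference, 2T-p190-B-/- minus 2T-WT (horizontal axis), of every tested gene of the 10 members and of 13 other lists, 1 point per gene, with the list median as a black bar, the median of all tested probes as a dashed line at −0.33, and genes whose groups do not overlap in red. The members' median is −1.24, and the other medians run from −1.43 for B lymphocyte markers to 0.33 for HSC genes.

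Other lists that could move with the early genes were read beside them. Of 13 heat shock genes on the array, 10 were tested, 6 higher and 4 lower in 2T-p190-B-/-. Each overlapped (0% without overlap, beside 15.9% of all tested probes). The sum of scaled signals over the tested genes was 5.89 to 19.1 in 2T-WT and 22.2 to 39.8 in 2T-p190-B-/-, which do not overlap. A few genes carried these sums. Shares here and below are of the sum over every listed gene with a value, tested or not. Hspe1 (named after its values were seen) made up 83.3% on 2T-p190-B-/- replicate 3 and Dnajb1 80.9% on replicate 2. The list's median log2 difference was 0.28, and −0.57 among probes above background on all 6 arrays. Hspa1a gave −0.57 (SE 0.74), Hspa8 0.16 (SE 0.70) and Dnajb1 2.00 (SE 1.94). Of 14 neutrophil and monocyte markers, 14 were tested, 10 lower and 4 higher, with a median of −1.01 that became −0.11 under quantile normalization and −0.27 with the mean over a gene's probes. Their sum was 1520 to 7950 in 2T-WT and 917 to 1600 in 2T-p190-B-/-, of which 1 gene, Itgam (named after its values were seen), made up 54.7% to 71.8%. Unscaled, the Itgam groups overlapped with a difference of −0.19. Mpo was −1.47 (SE 0.77) without overlap, and −0.02 with overlap when unscaled. On 2T-p190-B-/- replicate 2 Mpo was not well above background. Of 10 B lymphocyte markers, 9 were tested, 7 lower and 2 higher, with a median of −1.43 that became −0.43 without 2T-WT replicate 3. Their sum was 6.08 to 727 in 2T-WT and 5.43 to 7.35 in 2T-p190-B-/-, and Cd79a, named after its values were seen, stood at 9.47 on 2T-WT replicate 3. On the scaled level, that array also carried the highest Fosl2, Atf3 and Nr4a1 and the lowest Jun and Junb. Before scaling, its Fosl2 (9280) and Nr4a1 (53.4) signals were not the highest. T lymphocyte markers summed to 49.1 to 145 in 2T-WT and 40.4 to 59.3 in 2T-p190-B-/- (6 of 9 lower), with Cd3e above background on all arrays. From 7 to 10 of the 10 T lymphocyte markers were above background on an array. Cd4 alone, named after its values were seen, made up 55.3% to 92.3% of the sum. Unscaled, the Cd4 groups overlapped with a difference of 0.25. Red cell precursor markers (4 of 6 higher) summed to 325 to 986 in 2T-WT and 213 to 302 in 2T-p190-B-/-, which do not overlap either. However, Ermap alone, named after its values were seen, made up 97.5% to 99.8% of that. Its unscaled signals overlapped with a difference of 0.20. Klf1 was above background on 1 array of each group. Megakaryocyte and platelet markers summed to 59.6 to 92.1 and 29.9 to 101 (3 of 6 higher), with Pf4 above background on 1 2T-WT array. Itgb3, named after its values were seen, made up 35.1% to 90.9% of that sum. The part of these cells and of heat shock in the values of the early genes was not tested.

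Of 15 HSC genes, 11 were tested, 6 higher and 5 lower, with a median of 0.33. That median changed sign under some settings. It was −0.12 with no filter on dim probes, −0.08 with the slide as a block and −0.11 without 2T-p190-B-/- replicate 3. The groups did not overlap for 2, 1 in each direction (18.2%, beside 15.9% of all tested probes). Ly6a, which encodes Sca-1, was above background on all arrays, and Kit on all but 1 2T-WT array. Slamf1, which encodes the sorted CD150, was above background on none. Arhgap5 was above background only on 2T-p190-B-/- replicate 2, at −2.71, the same array as Fos, and its 1 probe does not check the genotypes.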

How the data were processed

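RNA of LSK-SLAM cells was amplified as cDNA, labelled with Cy3 and hybridised to 6 mouse arrays by Agilent. The sample labels gave the groups, 3 arrays each of 2T-WT and 2T-p190-B-/-. The authors deposited each array's Feature Extraction output (version 10.5.1.1), whose processed signal is an intensity on a linear scale with background removed, not scaled between arrays. They also deposited that signal divided by 1 number per array. Control and outlier spots were dropped, and saturation was found at 0 spots. Spots of a probe were averaged as log2 ratios to the 75th percentile of the array. A probe counted as above background on an array where at least 50% of its spots were, and those above it on 3 or more of 6 arrays were tested with limma 3.58.1 (R 4.3.3), with no covariates and Benjamini-Hochberg adjustment over all probes. Precision is limited by the number of arrays. A gene with several probes was taken by the brightest. Of 39429 probes, 26412 were named by accession, 4589 by gene name, and 8428 kept the file's name.

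The members, the 13 lists and the tests were chosen with earlier results of these data known. The text names every member, the early genes, AP-1 partners, regulators and kinases listed by role, and defining markers of other cell types. Some genes that this rule takes are not reported here. Genes outside that rule are said to be so. Alternatives were quantile normalization, normexp (offset 50), other filters on dim probes, the authors' values, a block for slide or for replicate number, an intensity trend, each array left out, and no scaling. The limma step was tested on simulated data.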

Additional observations from a re-analysis of the deposited data

Results flagged for a closer look

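Fos did not pass the filter and was compared between the genotypes only in the run with no filter on dim probes. Its processed signal was 246 on 2T-p190-B-/- replicate 2, well above background. On the 2T-WT arrays it was at most 5.31. Fos was singled out as a signal in data that the reported comparison does not use. The other 2T-p190-B-/- arrays were at 3.46 and 4.23, so it is a value of 1 array and no feature of the genotype. Arhgap5 was also above background on that array alone, as were 551 probes in all.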

How the results depend on the processing

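The median log2 difference of the members, −1.24 as reported, stayed below 0 under quantile normalization, normexp, both filters on dim probes, the authors' values, the slide as a block and each array left out. It was 0.21 without scaling between arrays, an alternative chosen after seeing the data that also moved the median of all probes to 1.12. The number of members whose groups do not overlap, 4 as reported, was 1 with normexp, 1 among probes above background on all 6 arrays (which leaves 4 members) and 1 without scaling. It was 3 to 5 under the other alternatives. The count of probes called by limma stayed 0 under every alternative run. For single members, a value counted as unmoved when it changed by less than that gene's SD between arrays. List medians were set against the members' median SD of 0.97, a spread of single genes and not of a median. By this rule 300 of 325 values were unmoved. Changes of sign were among them, such as Jun from 0.49 to −0.52 without 2T-p190-B-/- replicate 3, so the count does not show that signs held. With the replicate number as a block (replicate block) the members' median was −1.24 and 0 probes were called. Deviations of arrays with the same number had correlations of 0.009, 0.016 and 0.086 for numbers 1, 2 and 3. Those of arrays with different numbers ran from −0.075 to 0.067. With so few arrays, these values cannot tell whether the numbers pair the samples. The blocks by slide and by number could not be used to count overlap. Some members were at or near background: Fos, Egr1, Ier2, Atf3, Junb on 2T-WT replicate 3 and Jund on 2T-p190-B-/- replicate 3. The sizes of their differences are limited by the signal over background.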
